A study of Mus musculus with 8 samples.

Results

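The genes described here are 31 identity genes of mouse monocytes and macrophages, taken as a list of symbols and read in 8 cultures of haematopoietic stem and progenitor cells (HSPCs) in which Pcgf1 was or was not knocked down. Of the 32970 genes that could be told apart on the arrays, 17290 were measured, meaning that in 1 group or both the probe gave a signal clearly over background on each of the 4 arrays. Among the 31 members, 29 had a probe that could be named, 26 of these were measured and 23 were above background on all 8 arrays. Cd36, C1qc and Maf entered through the control arrays alone, so a lower reading with the Pcgf1 shRNA was easier to record for them than a higher one. The macrophage scavenger receptor gene Cd163, Cd5l, a secreted inhibitor of macrophage apoptosis, and C1qa, a chain of complement C1q, were above background on 1, 2 and 1 arrays of the Pcgf1 shRNA group and on 0, 0 and 1 arrays of the control group, and no change is given for them. Cd68 and Fabp5 had no probe matched by accession and are not analysed here.

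A retroviral shRNA against Pcgf1 was carried by 4 cultures, 1 from each of mice 1 to 4, and a control shRNA by another 4 from the same animals. Every animal was Runx1 Δ/Δ, of the strain mixed C57Bl/6 and 129SvJ, so the controls lacked Runx1 too and no array shows these genes with Runx1 intact. Marrow of femur and tibia was depleted of lineage-positive cells and grown for 2 days with SCF at 50 ng/ml, Flt3 ligand and IL-11 at 100 ng/ml each and IL-3 at 10 ng/ml, and 24 h after transduction the whole culture was put under puromycin (5 µg/ml), which was kept for 36 h. RNA came from the bulk culture, not from sorted cells or clones, and the age of the animals and the means of Runx1 deletion are not given in the sources used here.

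Monocytes arise in the marrow from granulocyte and monocyte progenitors, under the transcription factors PU.1, IRF8 and KLF4, and give rise to macrophages in tissue and in culture. Macrophages are known by what they do with what they engulf: scavenger receptors bind it, lysosomal enzymes and ion transporters break it down, lipid carriers move the sterols and fatty acids it releases, and secreted C1q tags further targets. RUNX1 acts upstream of the PU.1 gene Spi1 in blood formation. PCGF1 belongs to the Polycomb complex PRC1.1, which is recruited to unmethylated CpG islands and ubiquitinates histone H2A.

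All levels are log2 intensities relative to the 75th percentile of the array, so a level of 0 equals that percentile, and a change is the level with the Pcgf1 shRNA minus that with the control shRNA, in log2 units. Pcgf1 itself stood at −1.63, −1.64, −1.74 and −1.35 in the Pcgf1 shRNA cultures of mice 1 to 4, against −0.24, −0.23, −0.45 and −0.01 in their control cultures. The groups did not overlap, and the knocked-down cultures held 37.8% to 41.0% of the Pcgf1 signal of their own control (change −1.36 ± 0.12 SE, limma adjusted p = 0.0197; 4 of 4 mice lower; exact two-sided permutation p = 0.0286 over 4 against 4 arrays and 0.125 when signs are changed within the 4 mice, each the smallest that the design allows). Between 54.8% and 62.0% of the 43379 non-control spots of an array were well above background and 0 were saturated. Of 16 HSPC markers 13 were above background on all 8 arrays. The 2 arrays of mouse 4 stood apart from the rest on the first principal component (38.3 with the Pcgf1 shRNA and 44.8 with the control shRNA, against −30.1 to 2.96 on the other 6 arrays), and slide 1 held mice 1 and 2 and slide 2 held mice 3 and 4.

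Most of the measured members read lower with the Pcgf1 shRNA, but few passed the test. The members were chosen with earlier results of these data known. Their counts and median beside those of all genes are therefore a description, not a test of the list. The change was below 0 for 25 of 26 measured members (49.6% of all genes tested), and 20 of 26 were lower in 4 of 4 mice (16.2% of all genes). Without a block 1 member, Tmem119, fell (0.168% of all genes were called lower) and 0 rose (0.596% were called higher) at limma adjusted p 0.05. Before adjustment 9 members had p under 0.05 and were lower (5.51% of all genes) and 0 were higher (6.65%). With mouse as a block, which sets each culture against the other one of the same animal, 4 fell (2.43% of all genes): Tmem119, Cd36, Lst1 and Lyz1. Cd36 was measured through the control arrays alone. In the fit with the block 0 rose (2.92%), and 19 were lower (12.6%) and 0 higher (10.9%) at unadjusted p under 0.05. The groups did not overlap for Tmem119 and Vcan, 2 of 26 members (2.9% of all genes did not overlap and were lower), and for 0 members were they apart with the Pcgf1 shRNA higher (4.24% of all genes). A change of −1 or below was found for 6 members, Cd36 among them (1.42% of all genes). The median change over the measured members was −0.70, beside 0.00 over all genes tested, and members ranged from −1.77 to 0.00. The median was −0.69 over the 23 members above background on all 8 arrays, of which 22 were below 0. In a fit without a block of the 16365 genes above background on all 8 arrays, 31 were called lower. Among the 23 members 1 was called there, Tmem119. Over the 26 measured members the median was −0.64 on slide 1 and −0.74 on slide 2. A whole culture was measured, so fewer monocytes and macrophages and less of these messages per cell cannot be told apart.

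**Figure D1:**
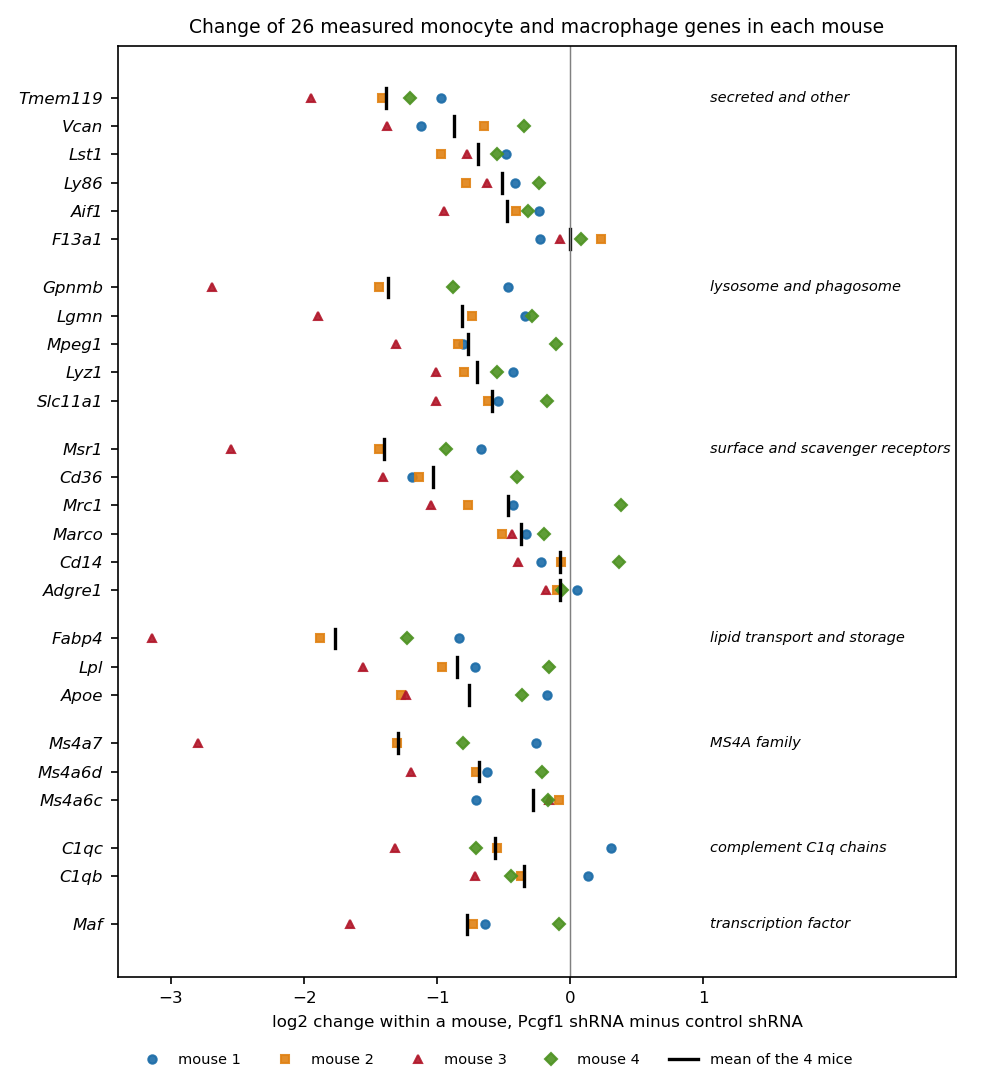
Change of the 26 measured members within each mouse, as log2 level with the Pcgf1 shRNA minus log2 level with the control shRNA, grouped by role. Symbols stand for the 4 mice and the bar for their mean. Most symbols lie left of 0, and mouse 3 gives the lowest value for 20 of the 26.

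**Figure D2:**
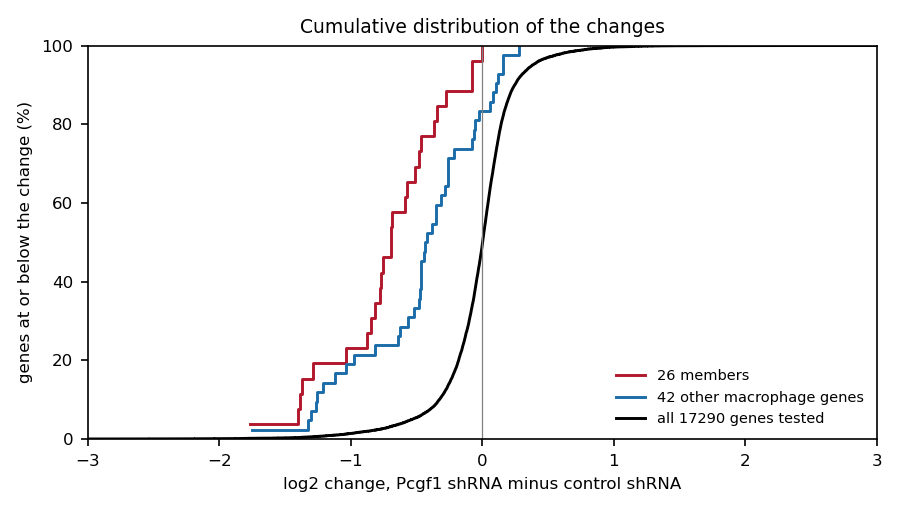
Cumulative share of genes, in percent, by their log2 change (Pcgf1 shRNA minus control shRNA), for the 26 measured members, 42 other macrophage genes and all 17290 genes tested. The medians are −0.70, −0.43 and 0.00.

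Tmem119 encodes a single-pass membrane protein that is best known as a marker of microglia, the macrophages of the brain, and that is also made by bone-forming cells (chromosome 5, 113793729 to 113800396, GRCm38.p6). It stood at −2.60, −2.76, −3.12 and −2.86 with the Pcgf1 shRNA in mice 1 to 4, against −1.63, −1.35, −1.17 and −1.65 with the control shRNA. Each of the 4 knocked-down cultures lay below all 4 controls. Tmem119 fell by 1.39 on the log2 scale (SE 0.15, limma adjusted p = 0.0197 without and 0.0174 with the mouse block), and 51.1%, 37.6%, 25.9% and 43.3% of the control signal were left in mice 1 to 4. With slide as a block the adjusted p was 0.0258, and with normexp background correction the change was −0.90 (adjusted p = 0.0332). The call did not hold in the fit without a block that left out mouse 1, 2 or 3 (changes −1.52, −1.38 and −1.20, adjusted p = 0.113, 0.351 and 0.114), nor with the block when mouse 2 or mouse 4 was left out (adjusted p = 0.0919 and 0.0579).

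Vcan encodes versican, a large extracellular proteoglycan abundant in classical monocytes (chromosome 13, 89655309 to 89743027). Its level was −1.43, −1.18, −1.73 and −1.21 in the Pcgf1 shRNA cultures and −0.30, −0.53, −0.36 and −0.87 in the control cultures. The lowest control, mouse 4, lay above every knocked-down culture. The change of −0.87 ± 0.17 (SE) did not pass (adjusted p = 0.0611, and 0.0508 with the block).

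Lst1, a small transmembrane protein of leukocytes encoded in the class III region of the major histocompatibility complex, was at −1.22, −1.65, −1.63 and −2.29 with the Pcgf1 shRNA, against −0.74, −0.68, −0.86 and −1.74 with the control shRNA. It was lower in 4 of 4 mice, yet the control of mouse 4 was lower than the knocked-down cultures of mice 1, 2 and 3, so the groups overlapped. Lst1 fell by 0.69 on the log2 scale with the block (adjusted p = 0.0266), and did not pass without it (adjusted p = 0.388). The block's call was lost when any 1 of the 4 mice was left out (adjusted p 0.0551 to 0.118).

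The remaining genes of this group have unlike functions. Ly86, also called MD-1, forms a receptor complex with CD180 on B cells, dendritic cells and macrophages, and had a change of −0.52 (adjusted p = 0.866, and 0.0524 with the block). Aif1, an actin-bundling calcium-binding protein whose product IBA1 is used to stain macrophages, had a change of −0.48. F13a1, the catalytic subunit of coagulation factor XIII in monocytes and platelets, was the member with the smallest difference, 0.00, with a 95% interval of −0.54 to 0.54, or −0.23 to 0.24 with the block. Its levels were 4.92, 5.25, 5.02 and 4.39 with the Pcgf1 shRNA and 5.15, 5.01, 5.10 and 4.31 with the control shRNA, lowest in mouse 4 in both groups.

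Of 6 members of the lysosome and phagosome 5 were measured, and each of the 5 was lower in 4 of 4 mice, with a median change of −0.77. Lyz1 encodes a lysozyme, which cleaves bacterial cell walls. It stood at 6.54, 6.18, 5.53 and 5.49 in the Pcgf1 shRNA cultures of mice 1 to 4, against 6.96, 6.98, 6.54 and 6.04 in the controls, and of the controls only that of mouse 4 lay within the range of the knocked-down cultures. Lyz1 fell by 0.70 on the log2 scale with the block (adjusted p = 0.0324), not without it (adjusted p = 0.396), and leaving out any 1 mouse took the block's adjusted p to between 0.0573 and 0.145. Its neighbour Lyz2 is a close paralogue and a probe may not separate the 2 genes, so the Lyz1 value is uncertain as to its source. The Lyz2 probe gave a change of −0.26 (adjusted p = 0.599, and 0.265 with the block).

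Gpnmb encodes a transmembrane glycoprotein of macrophage lysosomes and melanosomes. Its levels were 3.01, 2.38, 0.20 and 0.94 with the Pcgf1 shRNA and 3.48, 3.82, 2.89 and 1.83 with the control shRNA. The difference within mouse 3 was several times that within mouse 1, and the groups overlapped. The change of −1.37 ± 0.66 (SE) did not pass (adjusted p = 0.466, and 0.0840 with the block). Lgmn, the asparagine-specific lysosomal protease legumain, had a change of −0.82. Mpeg1, which encodes the pore-forming protein perforin-2, had a change of −0.77 (adjusted p = 0.232, and 0.0749 with the block). Slc11a1, the phagosomal metal transporter also known as NRAMP1, had a change of −0.59. None of these 3 passed in either fit.

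Among 7 surface and scavenger receptors 6 were measured, with a median change of −0.42. Cd36 binds oxidised lipoproteins and carries fatty acids across the membrane. It was at −6.12, −5.43, −6.68 and −4.93 with the Pcgf1 shRNA, against −4.93, −4.29, −5.27 and −4.52 with the control shRNA, levels at which only 2 of the 4 knocked-down cultures were well above background. Cd36 was lower in 4 of 4 mice and was called with the block (change −1.03, adjusted p = 0.0330). The size of that change rests partly on signals at background, and it was −0.31 with normexp background correction. It did not pass without the block (adjusted p = 0.326), and with it passed when mouse 4 was left out (adjusted p = 0.0422) but not without mouse 1, 2 or 3 (adjusted p = 0.0920, 0.137 and 0.0701).

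Msr1 encodes the class A scavenger receptor of macrophages. Its 4 knocked-down cultures spread from −4.11 to −0.08, with −0.08 in mouse 1, −2.27 in mouse 2, −4.11 in mouse 3 and −2.21 in mouse 4, against 0.59, −0.83, −1.56 and −1.27 in the same mice with the control shRNA. Mouse 1 was the highest and mouse 3 the lowest in both groups, and each mouse was lower with the Pcgf1 shRNA. The change of −1.40 ± 0.81 (SE) did not pass (adjusted p = 0.550, and 0.0577 with the block).

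Mrc1, the mannose receptor, had a change of −0.47 and was higher in mouse 4 alone. Marco, another class A scavenger receptor that binds bacteria, had a change of −0.37 and was lower in 4 of 4 mice. Neither passed in either fit. The other 2 surface genes had changes close to 0. Adgre1, which encodes the macrophage antigen F4/80, had −0.07 (95% interval −0.77 to 0.62, or −0.25 to 0.10 with the block). Cd14, the lipopolysaccharide co-receptor, had −0.08 (95% interval −1.02 to 0.86, or −0.40 to 0.25 with the block). Both signs turned when arrays were scaled by their median, which raised the change of every gene by 0.10 (Adgre1 0.026, Cd14 0.023).

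Lipid carriers and enzymes had the lowest group median, −0.85 over 3 measured of 4 members. Fabp4, a cytosolic fatty acid carrier of macrophages and adipocytes, was at 1.85, 0.26, −1.05 and −0.13 in the Pcgf1 shRNA cultures, against 2.69, 2.14, 2.09 and 1.09 in the control cultures. The knocked-down culture of mouse 1 lay above the control of mouse 4. Its change, −1.77 ± 0.59 (SE), was the lowest of the 26 and did not pass (adjusted p = 0.272, and 0.0524 with the block).

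Lpl encodes lipoprotein lipase, which frees fatty acids from circulating triglycerides. It stood at 4.56, 4.64, 3.87 and 3.79 with the Pcgf1 shRNA, against 5.27, 5.61, 5.43 and 3.95 with the control shRNA, lower in each mouse but by only 0.16 in mouse 4. The change was −0.85 ± 0.38 (SE, adjusted p = 0.422, and 0.0828 with the block). Apoe, the apolipoprotein that carries cholesterol out of macrophages, had a change of −0.76 (adjusted p = 0.401, and 0.103 with the block). Fabp4, Lpl and Cd36 are also used by fat cells. Of 9 adipocyte markers 5 were measured, each above background on all 8 arrays, with a median change of −0.19. With the block 2 fell (2.43% of all genes). Adipoq and Lep were above background on 0 arrays. The summed signal of the list was 1.88 to 2.06 with the Pcgf1 shRNA and 2.63 to 4.49 with the control shRNA, without overlap, in units of the array's 75th percentile. Whether fat cells added to the signal of Fabp4, Lpl and Cd36 was not tested.

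**Figure D3:**
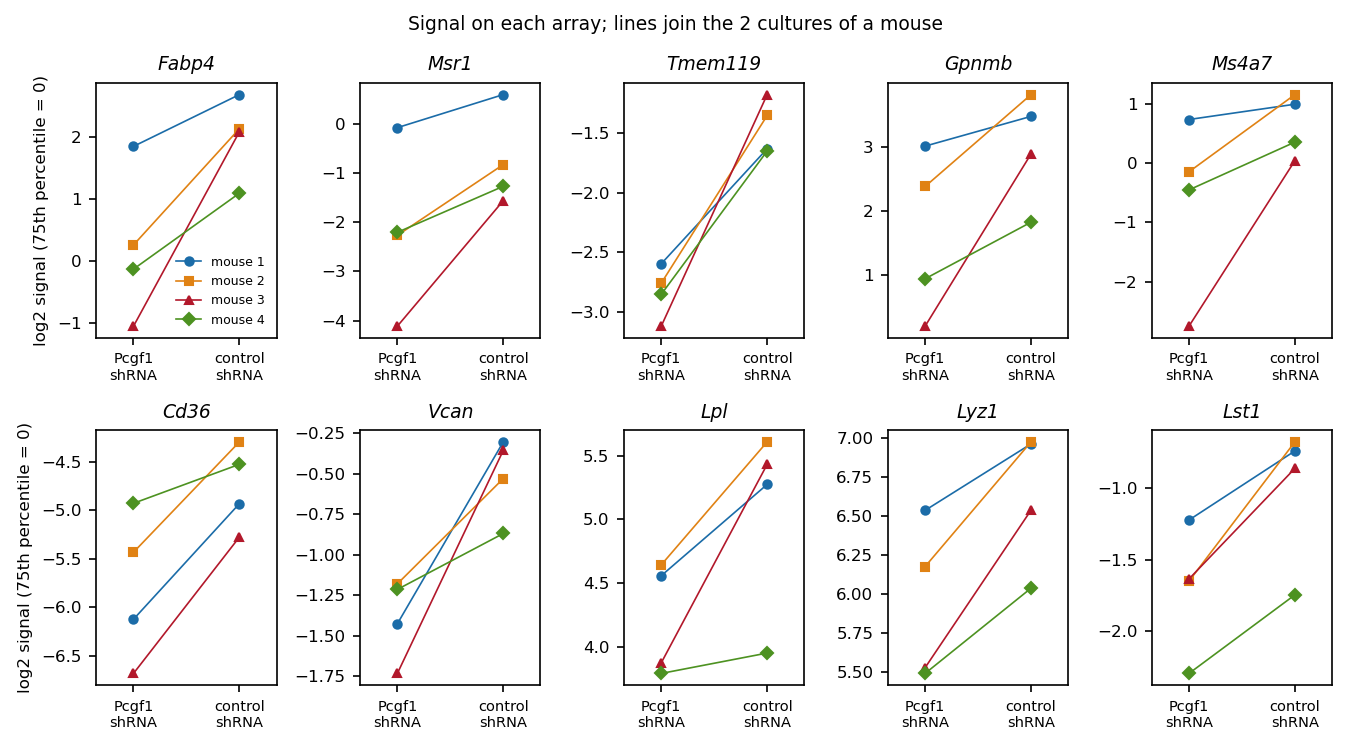
Log2 level, relative to the array's 75th percentile, on each of the 8 arrays for the members past the threshold in either fit and the 8 with the largest change. In each panel the 4 Pcgf1 shRNA cultures stand left of the 4 control cultures, and a line joins the 2 cultures of a mouse. Only the Tmem119 and Vcan groups do not overlap.

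The MS4A genes encode 4-pass membrane proteins and lie together on chromosome 19. All 3 members were measured and lower in 4 of 4 mice, and did not pass in either fit. Ms4a7, the member of the family most tied to mature macrophages, was at 0.74, −0.15, −2.75 and −0.45 with the Pcgf1 shRNA, against 0.99, 1.16, 0.04 and 0.35 with the control shRNA. Mouse 3 was the lowest in both groups and held the widest gap. The change was −1.29 ± 0.67 (SE, adjusted p = 0.503, and 0.122 with the block). Ms4a6d had a change of −0.69 (adjusted p = 0.264, and 0.0666 with the block) and Ms4a6c one of −0.28.

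Of the 3 C1q chains, which are encoded side by side on chromosome 4 and form the recognition unit of the classical complement pathway, C1qb and C1qc were measured. C1qc had a change of −0.57 and C1qb one of −0.35. Both were higher with the Pcgf1 shRNA in mouse 1 and lower in the other 3 mice. Maf, which encodes the bZIP transcription factor c-MAF of tissue macrophages, had a change of −0.78 (adjusted p = 0.596, and 0.125 with the block), above background on 3 of 4 knocked-down cultures, with levels of −3.71, −3.59, −5.72 and −3.54 in the Pcgf1 shRNA cultures and −3.07, −2.85, −4.06 and −3.46 in the controls.

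The size of the difference was unequal across the animals. The median change over the 26 measured members was −0.45 in mouse 1, −0.75 in mouse 2, −1.22 in mouse 3 and −0.30 in mouse 4, beside 0.041, 0.0054, 0.0044 and −0.048 over all genes. Mouse 3 had the lowest of the 4 differences for 20 members (76.9%, beside 27.9% of all genes). The highest of the 4 was in mouse 1 for 12 members (46.2%, beside 34.9% of all genes) and in mouse 4 for 12 (46.2%, beside 23.2%). The median absolute change of all genes was 0.150, 0.172, 0.217 and 0.174 in mice 1 to 4. The remaining Pcgf1 signal was 37.8% to 41.0% in the same animals, and its relation to the size of the members' changes was not tested. The linear signals of the 29 members with a probe, added up on each array, came to 229, 204, 145 and 132 with the Pcgf1 shRNA in mice 1 to 4, against 309, 317, 267 and 161 with the control shRNA. Each sum was lower with the Pcgf1 shRNA in its own mouse, while the control of mouse 4 lay below the knocked-down cultures of mice 1 and 2. Bright genes dominate such a sum. Lyz1, whose value is uncertain as to its source, had the highest level of the members on every array and weighs most in it.

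**Figure D4:**
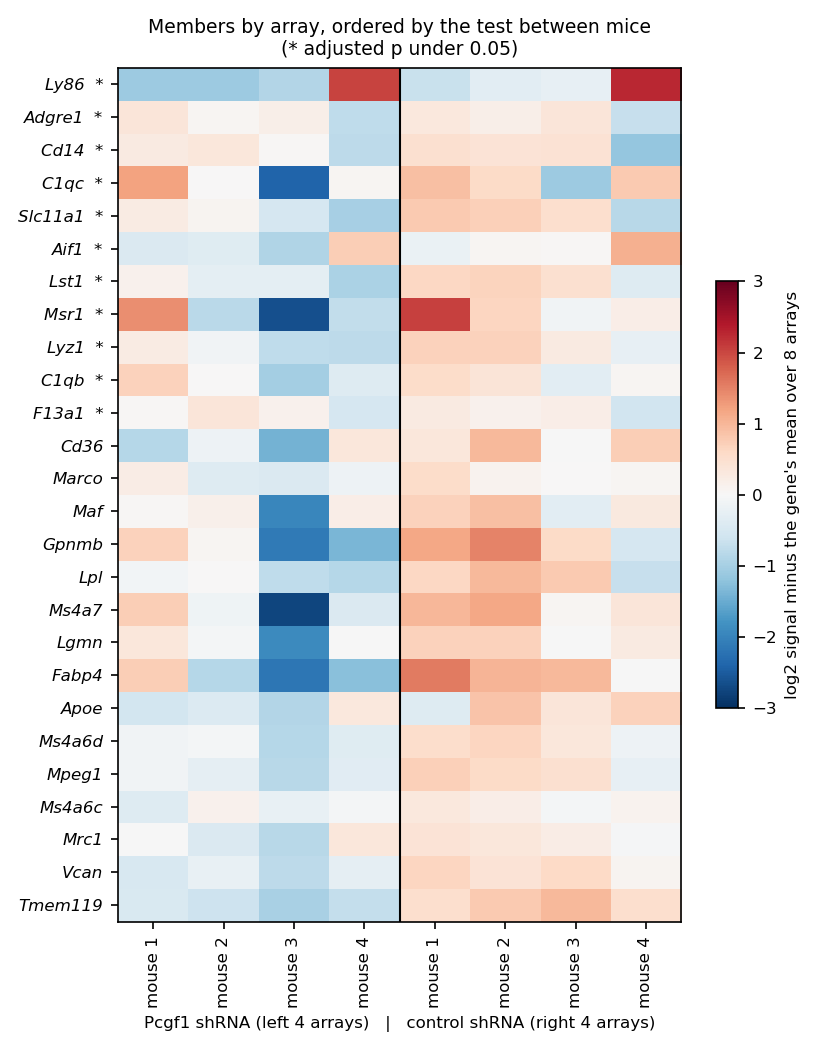
Level of the 26 measured members on each array as the difference from the gene's mean over the 8 arrays, in log2 units, with the 4 Pcgf1 shRNA arrays left of the 4 control arrays. Ly86 is high on both arrays of mouse 4, and the array of the Pcgf1 shRNA in mouse 3 is the lowest of the 8 for 17 of the 26 members.

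Members also varied between animals regardless of the shRNA. In a fit with treatment and mouse, a moderated F test over the mice called 11 of 26 measured members at adjusted p 0.05 (9.82% of all genes), and 19 at unadjusted p under 0.05 (29.6%). Ly86 had the smallest p (adjusted p = 0.00407): it stood at −4.13, −4.15, −3.93 and −1.03 in mice 1 to 4 with the Pcgf1 shRNA, and at −3.72, −3.37, −3.31 and −0.79 with the control shRNA. Both cultures of mouse 4 were above all others. The other 10 were Adgre1, Cd14, C1qc, Slc11a1, Aif1, Lst1, Msr1, Lyz1, C1qb and F13a1 (adjusted p 0.0167 to 0.0458), named after their values were seen.

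Those 11 genes did not share 1 order of animals. Mouse 4 was lowest for Adgre1, Cd14, Slc11a1, Lst1, Lyz1 and F13a1 and highest for Ly86 and Aif1, mouse 3 was lowest for 4, and mouse 1 was highest for 8. Adgre1, for example, was at 4.55, 4.25, 4.37 and 3.43 with the Pcgf1 shRNA and at 4.50, 4.35, 4.55 and 3.49 with the control shRNA. Without mouse 4 the test called 0 members (0.0347% of all genes), and 10 had an unadjusted p under 0.05 (12.4%). Without mouse 1, 2 or 3 it called 6, 8 and 12 members, beside 1160, 859 and 1947 of all 17290 genes. For C1qc, Msr1 and C1qb mouse 1 was highest and mouse 3 lowest, and without mouse 4 their unadjusted p was 0.00337, 0.00457 and 0.00742. Mice 1 and 2 shared a slide, as did mice 3 and 4, and animal and slide are nested.

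A second list held 48 further macrophage genes, of which 42 were measured. It too was chosen with earlier results of these data known, so it is no independent check of the members. In the fit without a block 0 were called, with 13 lower (5.51% of all genes) and 0 higher at unadjusted p under 0.05. With the mouse block 12 fell (2.43% of all genes) and 0 rose, with 27 lower (12.6%) and 1 higher (10.9%) at unadjusted p. The median change was −0.43, and 35 of 42 were below 0 (49.6% of all genes). Among the 12 were the transcription factor genes Klf4 (−1.26) and Irf8 (−0.47), the chemokine receptor Ccr2 (−1.21) and chemokine Ccl6 (−1.12), and the lipid droplet coat protein gene Plin2 (−0.82). They also included the matrix protein gene Tgfbi (−1.33), the lipid hydrolase genes Pla2g7 (−1.30) and Lipa (−0.44), the lysosomal protease gene Ctsb (−0.57), the inhibitory receptor gene Sirpa (−0.47) and Ms4a4c (−0.98). The adjusted p of the 12 lay between 0.0207 and 0.0490, and leaving out 1 mouse left 0 to 5 of the list called. Of the genes that passed in neither fit, those with the smallest p without a block were the sterol exporter genes Abcg1 (−1.04) and Abca1 (−1.75), the protease gene Ctss (−1.27), the prostaglandin synthase gene Hpgds (−0.26) and the tetraspanin gene Cd9 (−0.64). Abca1 was well above background on only 2 of the 4 knocked-down cultures and was measured through the control arrays alone. The size of its change rests partly on signals at background, with −0.57, −2.60, −3.63 and −0.21 in mice 1 to 4. Spi1, which encodes PU.1, had a change of −0.03 (95% interval −0.53 to 0.48, or −0.19 to 0.13 with the block), and the gene of the macrophage growth factor receptor, Csf1r, one of −0.52 (adjusted p = 0.549, and 0.0666 with the block). Both are given after their values were seen.

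Markers of other cell types were read on the same arrays. For reading these counts, 0.168% of all genes were called lower and 0.596% higher without a block, and 2.43% lower and 2.92% higher with it. Neutrophil maturation genes, 16 measured of 20, had a median change of −1.78 and a summed signal of 115 to 266 with the Pcgf1 shRNA, against 244 to 575 with the control shRNA. Of the 16 measured, 5 fell without a block, and 11 fell and 1 rose with it. Only 13 of the 16 were above background on all 8 arrays, and the rest entered through 1 group alone. All 10 measured dendritic cell genes of 14 were below 0 (median −0.74), and 2 fell with the block, none without it. Their sums were 9.48 to 44.0 with the Pcgf1 shRNA and 31.4 to 59.9 with the control shRNA, highest in mouse 4 in both groups. HSPC markers, 15 measured of 16, had a median change of 0.09, and their sums of 64.3 to 80.2 with the Pcgf1 shRNA did not overlap those of 52.0 to 55.1 with the control shRNA. Without a block 2 rose, and with it 3 rose and 1 fell. The median was −0.34 over 11 mast cell and basophil genes, of which 2 fell without and 4 with the block. It was −1.26 over 7 eosinophil genes (3 fell and 1 rose with the block, none passed without it) and −0.56 over 12 erythroid and megakaryocyte genes (2 fell with the block, none passed without it). The 5 measured lymphoid genes, with a median of −0.28, did not pass in either fit. Of 11 lymphoid markers 6 were above background on 0 arrays, as were Cdh5, Col3a1, Dcn and Pdgfra of 14 stromal and endothelial markers, of which 5 were measured and 1 rose with the block. Above background on all 8 arrays were 13 of the 15 measured HSPC genes, 4 of the 5 lymphoid and 4 of the 5 stromal and endothelial genes. The part of these other cell types in the members' values was not tested.

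The promoters of the members are shown because PRC1.1 is known for binding CpG islands, and CpG content is a property that the choice of the members did not use. RefSeq windows of 300 bases around the transcript start (GRCm38.p6) were at hand for 20 of the 31 members, 25 windows in all. Tmem119, Lst1, Fabp4 and Msr1 were among the members with no window. Cd163, Cd5l and Cd68, for which no change is given, are among those with a window. A CpG observed-over-expected ratio of 1 means that CG pairs are as common as the C and G content alone would give. The median ratio was 0.253 over the members' windows, against 0.735 over 12112 windows of measured genes and 0.384 over all 32851 windows, and the median G and C content was 47.7% against 60% in measured genes. A ratio above 0.6 was found in 3 of the 25 members' windows (12%), in 1 window each of Apoe, Lgmn and Ly86, beside 65.5% of windows of measured genes. The share was 65.3% in 72 windows of genes called higher with the Pcgf1 shRNA and 36.7% in 30 windows of genes called lower, without a block. The windows below run 5′ to 3′ on the gene's strand, each CG pair in capitals, and show members that passed only with the mouse block (Lyz1, Cd36) or had a large change without passing (Gpnmb, Vcan) beside the member with the highest ratio (Ly86).
Lyz1: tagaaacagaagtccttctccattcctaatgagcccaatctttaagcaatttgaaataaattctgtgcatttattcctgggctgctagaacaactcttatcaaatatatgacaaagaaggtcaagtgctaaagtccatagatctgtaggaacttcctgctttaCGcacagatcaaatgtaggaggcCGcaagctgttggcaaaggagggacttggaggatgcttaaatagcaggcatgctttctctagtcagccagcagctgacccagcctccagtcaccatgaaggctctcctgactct
Cd36: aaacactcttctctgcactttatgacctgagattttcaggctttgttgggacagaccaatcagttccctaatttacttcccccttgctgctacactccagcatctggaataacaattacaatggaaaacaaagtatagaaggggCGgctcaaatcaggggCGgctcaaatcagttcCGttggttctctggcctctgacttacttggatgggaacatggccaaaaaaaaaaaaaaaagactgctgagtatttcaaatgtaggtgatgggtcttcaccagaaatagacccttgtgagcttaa
Gpnmb: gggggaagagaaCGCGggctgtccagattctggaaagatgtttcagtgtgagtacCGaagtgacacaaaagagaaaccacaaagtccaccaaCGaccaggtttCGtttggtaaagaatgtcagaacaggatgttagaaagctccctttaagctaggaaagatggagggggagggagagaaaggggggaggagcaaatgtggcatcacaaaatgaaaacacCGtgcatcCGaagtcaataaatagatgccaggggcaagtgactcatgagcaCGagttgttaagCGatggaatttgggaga
Vcan: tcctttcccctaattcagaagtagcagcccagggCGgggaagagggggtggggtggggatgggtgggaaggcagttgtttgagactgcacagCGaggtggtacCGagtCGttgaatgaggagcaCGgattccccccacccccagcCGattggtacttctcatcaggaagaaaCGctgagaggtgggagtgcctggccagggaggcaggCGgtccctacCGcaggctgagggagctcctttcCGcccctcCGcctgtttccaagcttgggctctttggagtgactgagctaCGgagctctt
Ly86: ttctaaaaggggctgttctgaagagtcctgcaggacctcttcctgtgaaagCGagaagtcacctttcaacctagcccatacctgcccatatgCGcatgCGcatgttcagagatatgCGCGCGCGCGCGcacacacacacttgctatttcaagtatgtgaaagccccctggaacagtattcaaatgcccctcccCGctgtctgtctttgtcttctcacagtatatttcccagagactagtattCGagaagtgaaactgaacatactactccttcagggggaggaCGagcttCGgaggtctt
The Lyz1 window (chr10:117292819-117293118, minus strand) holds 2 CG pairs, for a ratio of 0.136, and the Cd36 window (chr5:17835847-17836146, minus strand) holds 3, for a ratio of 0.217. The Gpnmb window (chr6:49036268-49036567, plus strand) holds 9 (0.592) and the Vcan window (chr13:89742463-89742762, minus strand) holds 12 (0.441). The Ly86 window (chr13:37345095-37345394, plus strand) holds 13 CG pairs, several of them in 1 unbroken run, for a ratio of 0.691.

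**Figure D5:**
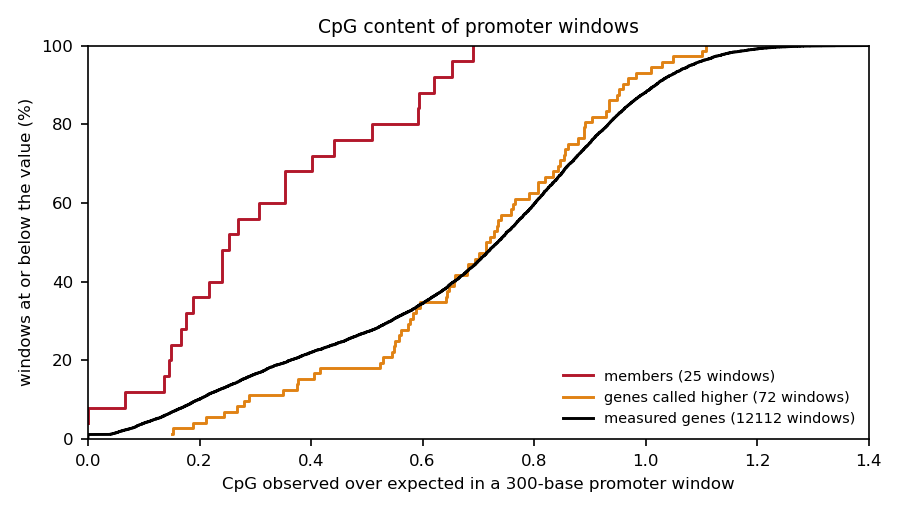
Cumulative share of promoter windows, in percent, by their CpG observed-over-expected ratio, for the members, for genes called higher with the Pcgf1 shRNA without a block, and for all measured genes. The members' curve lies left of both others, with a median of 0.253 against 0.735 in measured genes.

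Letters resembling the sites of macrophage factors were counted on both strands of the same windows. GAGGAAG, a PU.1 core, was in 6 of 25 members' windows (24%) and in 13.6% of all windows, and TTNCNCAA, a loose C/EBP site, in 24% and 13.3%. The palindrome TTGCGCAA, which is a special case of TTNCNCAA, was in 0 of the 25 and in 0.183% of all windows. TGTGGT, a RUNX site, was in 16% and 16.8%, TGAGTCA, an AP-1 site, in 8% and 5.2%, and TGCTGA, part of a MAF site, in 12% and 19.5%. A match is a description of these letters, not a bound site.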

How the data were processed

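Messenger RNA of 8 cultures was read on single-colour Agilent whole mouse genome arrays, with Feature Extraction 10.1 per the submitters' processing notes. The deposited spot files, per the file headers, hold the intensity of each spot after background subtraction and spatial detrending, with no scaling between arrays. A deposited table of log2 values, which the authors centred per probe as comparison with the spot files showed, served as an alternative only. The log2 of the processed intensity was set to 0 at each array's 75th percentile. Control spots and 242 values of non-uniform spots were left out, spots of a probe were averaged, and a gene was read from its brightest probe by mean signal. Of 41174 probes 24375 were named by RefSeq accession (GRCm38.p6). The 7 members with several measured probes had the same sign in each, with a largest gap of 0.14 (Aif1). The comparison used limma 3.58.1 under R 4.3.3 (lmFit, eBayes, two-sided, Benjamini-Hochberg over 17290 genes) without a block.

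Titles number the mice, so the 2 cultures of an animal are paired. Their deviations from the group means correlated at r of 0.439, 0.481, 0.407 and 0.642, against at most 0.250 with any culture of another animal in the other group, and the fit with mouse as a block is given where it changes a call. The procedure was tested on simulated data. For the change with the shRNA these were drawn with no shared level between the 2 cultures of a mouse. That simulation therefore cannot decide between the fits with and without the block. Alternatives covered the block, slide, scaling, background, value source, filter, probe choice, array weights and each mouse left out. Named members are those past the threshold in either fit and the 8 with the largest change. Each other member is given by its change, and Ly86, Adgre1, F13a1 and Maf also by array, chosen after their values were seen. Some genes that the naming rule takes are not reported here. The members and lists were chosen with earlier results of these data known. Of the arrays, 4 a group limit the precision.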

Additional observations from a re-analysis of the deposited data

Results flagged for a closer look

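A single array stood far from the other 3 of its group in 6 of the 54 groups of 4 arrays examined, where the gap to the nearest array, divided by the range of the group, passed Dixon's 95% critical value. Chance alone passes it in about 1 of 20 groups. Ly86 was high in mouse 4 with both shRNAs: with the Pcgf1 shRNA it was at −1.03 against −4.15 to −3.93 in the other mice (gap share 0.929), and with the control shRNA at −0.79 against −3.72 to −3.31 (0.859). Maf was low in mouse 3 with the Pcgf1 shRNA, at −5.72 against −3.71 to −3.54 (0.924). In the control cultures Cd14 was low in mouse 4, at 1.49 against 3.05 to 3.13 (0.950), as was F13a1, at 4.31 against 5.01 to 5.15 (0.835). C1qc was low in the control culture of mouse 3, at −4.48 against −2.82 to −2.50 (0.837).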

How the results depend on the processing

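The median change of the measured members kept its direction under every alternative run, from −0.80 to −0.50 with 1 mouse left out, −0.64 and −0.74 within the 2 slides and −0.52 with normexp background correction, and the calls did not keep their number. With mouse as a replicate block, 4 members, 12 other macrophage genes, 421 genes of all were lower and 505 higher, against 1, 0, 29 and 103 without it, and the block changed no call of Pcgf1. Array weights called 6 members (Fabp4, Lst1, Mpeg1, Mrc1, Tmem119, Vcan), 9 other macrophage genes, and 690 genes of all lower and 965 higher. Slide as a block called 1 other macrophage gene and 48 of all lower, quantile normalization 1 other macrophage gene, and normexp 51 of all higher. With no filter on dim probes, 32969 genes were tested and 0 were lower or higher (2199 at unadjusted p under 0.05, among them 7 members, all lower), Pcgf1 (−1.36) had an adjusted p of 0.104, and 0 members differed between mice (17 unadjusted). Leaving out each mouse in turn gave 0 to 12 members that differed between mice, beside 6 to 1947 of all genes. It gave 0 to 2 members lower, 0 to 3 other macrophage genes, 0 to 115 of all lower and 0 to 248 of all higher. With the block these counts were 0 to 3, 0 to 5, 0 to 156 (129 without mouse 3) and 0 to 177. In these fits 4 to 14 members, and 19 or 20 with the block, were lower at unadjusted p under 0.05. Without mouse 4 Vcan fell too, with no block, and without mouse 3 Fabp4, Msr1 and Tmem119 fell with it. The Pcgf1 change stayed between −1.38 and −1.34, with adjusted p of 0.113, 0.351 and 0.0902 without mouse 1, 2 or 3, and 0.0895 with the block without mouse 2. Signs turned for Adgre1 (0.026) and Cd14 (0.023) with median scaling, for Cd14 without mouse 3 (0.027, lowest −0.23 without mouse 4), and for F13a1 with the percentile over detected probes (−0.014), with the value table (−0.0063) and without mouse 2 or 4 (−0.078 and −0.025, highest 0.078 without mouse 1). The cause of these differences was not tested. Dim members such as Cd36, Maf and C1qc are close to background.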

Other observations

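Ly86 was 1 of 1267 named genes that differed between mice at adjusted p 0.05, and ranked 7 by how far the arrays of mouse 4 stood above the mean of the others (2.86 in log2 units). The 6 genes ranked above it were chosen after their values were seen. Ly6d, an early marker of the B cell lineage, stood 4.32 above the other mice, and Dntt, the terminal transferase of lymphoid progenitors, stood 3.82 above them. Dntt was at 1.17 in mouse 4 and −3.13 to −2.78 in the other mice with the Pcgf1 shRNA, and at 0.85 in mouse 4 and −2.80 to −2.59 in the others with the control shRNA. Spib, a PU.1-related factor of plasmacytoid dendritic cells and B cells, stood 3.07 above, the lectin receptor gene Klrd1 3.72, the semaphorin gene Sema6d 3.02 and the protease gene Ctse 4.14. For Ctse the other mice were unlike each other. With the Pcgf1 shRNA it was at −1.86, −1.73, 1.50 and 3.62 in mice 1 to 4, and with the control shRNA at −1.29, −0.35, 1.95 and 4.07. Cd180, whose product pairs with that of Ly86, had a change of 0.10 with the Pcgf1 shRNA (limma adjusted p = 0.828). Its mean over the 2 arrays of a mouse was −3.13, −3.11, −2.93 and −3.36 in mice 1 to 4. Of the 11 lymphoid markers 5 were measured and 6 were above background on 0 arrays, so their summed signal rests on few genes. This sum was 1.67, 1.80, 2.02 and 1.53 in mice 1 to 4 with the Pcgf1 shRNA, and 1.91, 2.00, 2.31 and 1.91 with the control shRNA. The summed signal of the dendritic cell genes was highest in mouse 4 in both groups. It was 44.0 there with the Pcgf1 shRNA and 59.9 with the control shRNA. Why Ly86 and the 6 genes above it stood high in mouse 4 was not tested.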
